A study of Mus musculus with 6 samples.

Results

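The Th17 regulators and cytokines described here are 9 genes that sense, transmit or carry out the interleukin 17 programme of CD4 T helper cells, Rora, Il17a, Il17f, Il22, Il1r1, Ahr, Stat3, Il6st and Il6ra. They were taken by gene symbol from the platform annotation of the deposited table. In that annotation 7 of the 9 genes had probe sets of their own, 15 in all, of 22626 probe sets tested and 12393 genes with a probe set of their own. Il22 appeared on 1 further probe set that it shares with its near copy Iltifb, and Il17f was not analysed here because no probe set carried its symbol. The samples were cultures of CD4 T cells drawn by magnetic beads from spleen and lymph nodes of C57BL/6 mice, 3 from miR-155 KO mice and 3 from WT mice, each hybridised to 1 Affymetrix array. All cultures, KO and WT, received CD3 and CD28 antibodies (1 µg/mL) for 3 days. Interleukin 2 at 20 U/mL was the only cytokine that the labels name. The labels give neither age nor sex, and the part of the locus missing in the KO mice is not given in the sources used here. The design text gives 1 mouse per array, which the sex-linked signal of both replicate 3 arrays, described below, goes against. The question addressed was how transcripts of this programme differ when miR-155 is absent.

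Th17 cells are the helper subset that makes interleukins 17A, 17F and 22 at mucosal and inflamed sites. Interleukin 6 binds its receptor Il6ra, which pairs with the shared signalling chain gp130 (Il6st) and activates the transcription factor Stat3. Stat3 acts with the nuclear receptor Rora on the Il17a and Il17f genes, interleukin 1 acts through Il1r1, and the ligand-activated factor Ahr favours Il22. In mice, loss of miR-155 is known to weaken Th17 responses.

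The microRNA missing from the KO cells is shown because it defines the comparison. Both arms come from 1 hairpin on the plus strand of chromosome 16, and capitals mark the seed, bases 2 to 8, through which a microRNA pairs with transcripts. Positions are in build GRCm38.p6 and the sequences are from RefSeq.
mmu-miR-155-5p, chr16:84714143-84714165: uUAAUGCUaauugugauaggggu
mmu-miR-155-3p, chr16:84714182-84714202: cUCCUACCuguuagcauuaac

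The promoters of the member genes were read for a short motif within the site that ROR factors bind, since Rora is a member. The motif AGGTCA was searched on both strands from 250 bases before to 50 after each start in the RefSeq table of build GRCm38.p6. It occurred in 2 of the 9 windows that 8 member genes had, against 16.3% of 32851 windows in the table. Both were the interleukin 17 genes, and the windows are shown 5′ to 3′ along the gene with the motif in capitals. In Il17a it begins 120 bases before the start on the opposite strand, and in Il17f 58 bases before the start on the gene's own strand.
Il17a, chr1:20730775-20730800, plus strand: ggttctgtgcTGACCTcatttgagga
Il17f, chr1:20784313-20784338, minus strand: gtcagtaaggAGGTCAgtggaaacag
The Ahr core GCGTG, also on both strands, was in 5 of the 9 windows, of Rora, Stat3, Il6ra and Il1r1, against 32.4% of all windows. The Stat palindrome TTCNNNGAA was in 0 of 9, against 8.3% of all. These are matches of letters and say nothing on binding in these cells.

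Values are log2 RMA values, in which 1 unit is a doubling, and differences are KO minus WT. The labels were checked with Mir155hg, the host gene, which averaged 3.95 ± 0.47 on KO arrays and 7.50 ± 0.83 on WT arrays (SD, n = 3 each). Xist and Y-linked probe sets gave replicate 1 of both genotypes as Xist only and replicate 2 of both as Y-linked only. KO replicate 3 and WT replicate 3 carried both, with Eif2s3y at 10.05 and 10.21 and Xist (1436936_s_at) at 12.59 and 12.64, a pairing that RNA of a single mouse does not normally show. Values without both arrays are given below. Of the CD4 T cell markers, Cd3d measured 12.8 to 13.4 over the 6 arrays and Cd4 (1419696_at) 8.83 to 9.25. To show the level of dim probe sets, 34 probe sets of 17 genes of other organs had a median of 4.38 and an upper quartile of 5.42. The highest of their means was 11.1, so not all of them were dim. No detection calls were used, so probe sets near that median or quartile cannot be called expressed.

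None of the 15 member probe sets passed the test over all probe sets. The smallest adjusted p among them was 0.706 and the largest 0.994 (limma, Benjamini-Hochberg over 22626 probe sets), and 0 of all probe sets (0.0%) passed. At an unadjusted p under 0.05 limma gave 1 of the 15, Il1r1, on the higher side, where 6.55% of all probe sets passed, 3.22% higher and 3.33% lower in KO. KO and WT arrays did not overlap in the same 1 probe set of 15, against 11.7% of all, 5.89% with KO above and 5.83% with KO below WT. The difference was above 0 in 12 of the 15, against 50.4% of all, with a median of 0.24 against 0.00 for all probe sets. KO replicate 1 carried much of that, since without it 8 of the 15 were above 0 and the median was 0.02. Without WT replicate 1 instead, 11 of the 15 were above 0 and the median was 0.10.

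**Figure D1:**
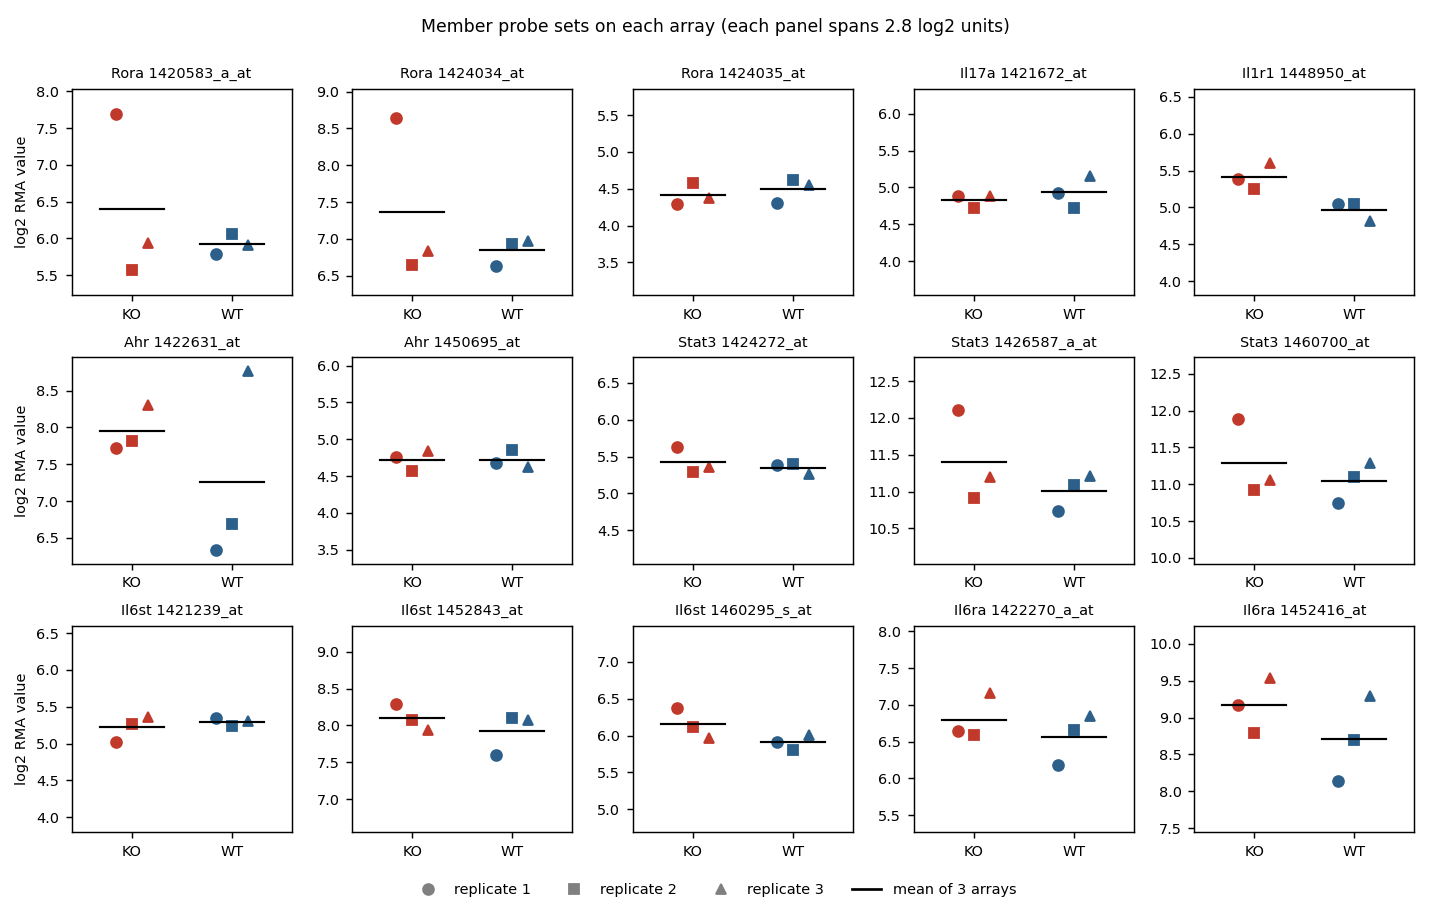
Log2 RMA values (y axis) of the 15 member probe sets on each array, KO left of WT, with 1 symbol per replicate number and a line at the mean of 3 arrays. KO replicate 1 stands furthest above the other arrays in 2 Rora panels and the 2 brighter Stat3 panels. WT replicate 3 is the highest in the brighter Ahr panel, and the KO and WT points are apart in the Il1r1 panel.

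Rora encodes RORα, a nuclear receptor that promotes the Th17 programme. On the brightest of its 3 probe sets (1424034_at) it measured 8.64, 6.65 and 6.83 on the KO arrays, against 6.64, 6.93 and 6.97 on the WT arrays. A second probe set (1420583_a_at) gave 7.69, 5.57 and 5.94 on the KO arrays, against 5.79, 6.05 and 5.91 on the WT arrays. In both, KO replicate 1 was the highest array and the other 2 KO arrays lay at or near the WT values, so the genotypes overlapped. The differences were 0.52 ± 0.51 and 0.48 ± 0.52 (SE; limma adjusted p = 0.785 and 0.803), and without KO replicate 1 they were -0.11 and -0.16. The remaining probe set (1424035_at) was dim, at 4.30 to 4.58 on KO arrays and 4.31 to 4.62 on WT arrays, and differed by -0.07 ± 0.13 (SE). Over the 6 arrays the 2 brighter probe sets had a Pearson r of 0.992 with each other, and the dim one had r = -0.458 and -0.519 with them, as a description of 6 arrays.

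Other genes that share the ROR binding site or the daily clock were counted beside Rora. Of 22 probe sets of 14 such genes 10 were above 0, against 50.4% of all, and 12 below, with a median of -0.01. At an unadjusted limma p under 0.05 there were 2, against 6.55% of all probe sets. These were Nr1d2, a repressor that competes for the ROR site, at 0.30 ± 0.09 (SE, 1416958_at), and Nfil3, a transcriptional repressor, at 0.73 ± 0.25. Nr1d2 measured 7.32, 7.25 and 7.27 on the KO arrays, against 7.04, 6.91 and 6.97 on the WT arrays. The other probe set of Nr1d2 (1416959_at) was dim, overlapped between the genotypes and differed by -0.14, and the mean of both probe sets differed by 0.08. The groups did not overlap, with KO above WT, in 4 of the 22 probe sets, against 5.89% of all. Among the 4 were Nr1d2 1416958_at, Nfil3 and the clock activator Arntl, whose difference was 0.40 ± 0.17 (0.21 without KO replicate 1). Rorb differed by -0.07.

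Stat3 is the factor that interleukin 6 activates. It measured 12.11, 10.91 and 11.20 on the KO arrays, against 10.73, 11.09 and 11.22 on the WT arrays (1426587_a_at). The probe set 1460700_at gave 11.89, 10.93 and 11.06 on the KO arrays, against 10.75, 11.10 and 11.29 on the WT arrays. As with Rora, KO replicate 1 stood above the rest and the remaining arrays overlapped. The differences of 0.39 ± 0.32 and 0.24 ± 0.28 (SE; limma adjusted p = 0.745 and 0.813) became 0.04 and -0.06 without KO replicate 1. The dim probe set 1424272_at spanned 5.29 to 5.63 on KO arrays and 5.26 to 5.40 on WT arrays. KO replicate 1 was its highest array too, and the difference of 0.08 ± 0.12 was -0.02 without it.

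Transcripts known to follow Stat3 were counted beside it. Of 29 probe sets of 14 genes, 14 were higher and 2 lower in KO at an unadjusted limma p under 0.05, with a median difference of 0.31 and 0 past the adjusted test. Over all probe sets 3.22% were higher and 3.33% lower at that threshold. Mcl1 alone gave 5 of the 14 and Socs3 3, so the probe sets are not separate genes. Prdm1, which encodes a transcriptional repressor, measured 8.68, 7.51 and 8.03 on the KO arrays, against 6.15, 6.48 and 7.27 on the WT arrays, with a difference of 1.44 ± 0.38 (SE). Every KO array lay above every WT array, as also for Cebpd and Pim1. Pim1, a survival kinase gene, differed by 0.81 ± 0.19. Cebpd, a transcription factor, differed by 0.92 ± 0.20 on a dim probe set, at 4.61 to 5.20 on KO arrays and 3.81 to 4.23 on WT arrays, and by -0.01 on its other one. Bcl2l1, which encodes the survival protein Bcl-xL, went the other way on 3 of its 4 probe sets, at -0.48, -0.36 and -0.31. The count of 14 was 5 without KO replicate 3, 8 without WT replicate 1 or WT replicate 2, 10 without KO replicate 1 and 12 without both replicate 3 arrays. It stayed at 14 without WT replicate 3 and was 15 without KO replicate 2. Over all probe sets the share past the same threshold was 3.24%, 3.08%, 3.01%, 4.61%, 4.59%, 12.2% and 13.7% in those fits, in order. With all arrays it was 6.55%. Socs3 and Pim1, for example, also respond to interleukin 2, which was in every culture, KO and WT. The part of Stat3 or of interleukin 2 in these differences was not tested.

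**Figure D2:**
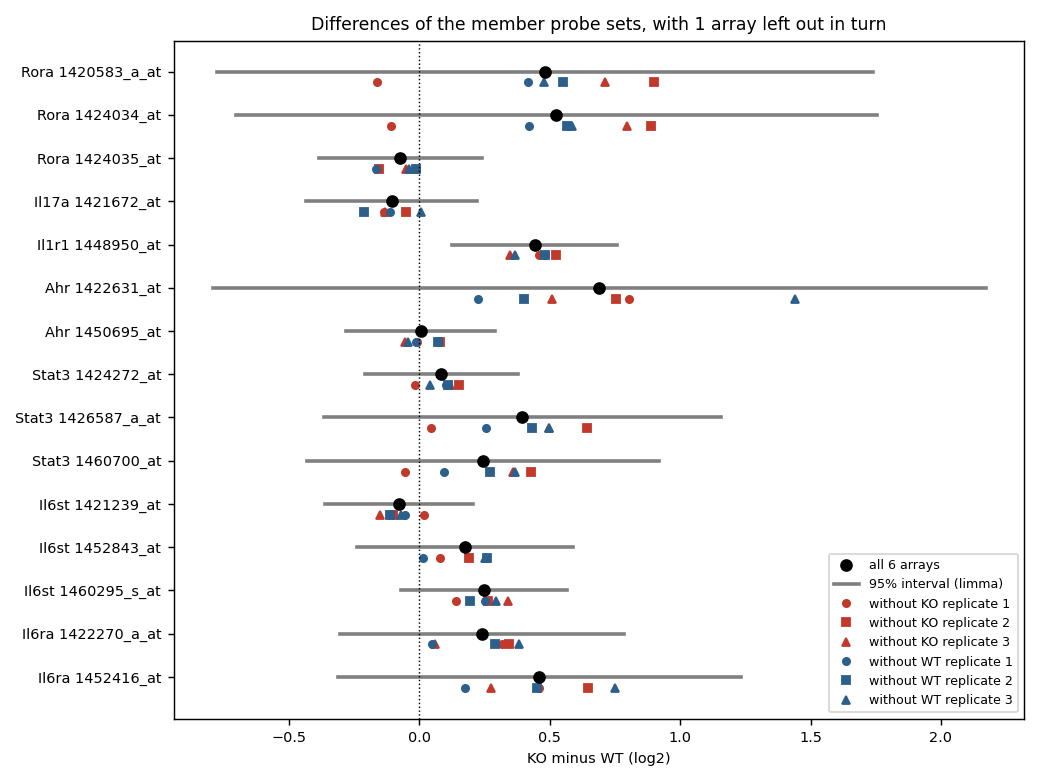
KO minus WT (x axis, log2) for each member probe set, with black points for all 6 arrays, grey bars for the 95% interval of limma, and coloured symbols for the fit without 1 array. The Rora and Stat3 differences lie near or below 0 without KO replicate 1, that of Ahr 1422631_at is 1.44 without WT replicate 3, and the interval of Il1r1 runs from 0.13 to 0.76.

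Ahr, a sensor of small aromatic ligands, had the largest SD over the 6 arrays of all member probe sets, 0.93. On its bright probe set (1422631_at) Ahr measured 7.72, 7.82 and 8.31 on the KO arrays, against 6.33, 6.69 and 8.77 on the WT arrays. The KO arrays lay close together, while WT replicates 1 and 2 were below all KO arrays and WT replicate 3 was above them. The mean was 7.95 ± 0.31 in KO and 7.26 ± 1.31 in WT (SD, n = 3 each), a difference of 0.69 ± 0.62 (SE, limma adjusted p = 0.769) with a 95% interval of -0.79 to 2.17. WT replicate 3 is 1 of the arrays with both Xist and Y-linked signal. Without it the difference was 1.44 (limma adjusted p = 0.409), and without both replicate 3 arrays it was 1.26 (limma adjusted p = 0.749). Within a replicate number the differences were 1.39, 1.13 and -0.46 for replicates 1, 2 and 3. The other probe set (1450695_at) was dim, at 4.57 to 4.84 on KO arrays and 4.62 to 4.85 on WT arrays, and differed by 0.00 ± 0.12.

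The partners and targets of Ahr were mostly dim or followed other arrays. Of 12 probe sets of 7 genes, 3 were higher and 0 lower in KO at an unadjusted limma p under 0.05, with a median of 0.23. Over all probe sets 3.22% were higher and 3.33% lower at that threshold. Tiparp, a target that feeds back on Ahr, measured 10.14, 8.78 and 8.98 on the KO arrays, against 8.18, 8.54 and 8.55 on the WT arrays (1452160_at). KO replicate 1 was highest there, the difference was 0.88 ± 0.35 (SE), and it was 0.46 without that array. Cyp1a1, the enzyme most used as a readout of Ahr activity, differed by 0.39 ± 0.12. However, it lay at 4.08 to 4.67 over all arrays, near the median of the genes of other organs (4.38). The other classical targets Cyp1b1, Nqo1 and the repressor Ahrr differed by between -0.06 and 0.07. Lpxn, an adhesion adaptor on the list, differed by 0.88 ± 0.27, and Arnt, the dimer partner of Ahr, by 0.44 and 0.07 on its 2 probe sets. The 3 calls of this list numbered 0 without WT replicate 1 and 1 without WT replicate 2, fits in which 3.08% and 3.01% of all probe sets had such a p. Without KO replicate 2 there were 4, where 13.7% of all probe sets had such a p. Without any other array there were 2 or 3. The score of a list on an array is the mean, over the list's probe sets, of the value minus that probe set's mean over the 6 arrays. For the Ahr list it was 0.40, 0.00 and 0.09 on the KO arrays, against -0.30, -0.17 and -0.02 on the WT arrays. WT replicate 3, the highest array for Ahr, was also the highest WT array for the list.

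Il6ra, the binding chain for interleukin 6, had a higher KO mean on both of its probe sets, within the spread between arrays. On its brighter probe set (1452416_at) it measured 9.17, 8.79 and 9.54 on the KO arrays, against 8.14, 8.69 and 9.29 on the WT arrays. The probe set 1422270_a_at gave 6.64, 6.60 and 7.16 on the KO arrays, against 6.18, 6.66 and 6.85 on the WT arrays. In both, WT replicate 1 was the lowest array and KO replicate 3 the highest, and the genotypes overlapped. The differences were 0.46 ± 0.32 and 0.24 ± 0.23 (SE; limma adjusted p = 0.726 and 0.779), and they were 0.18 and 0.05 without WT replicate 1. The 2 probe sets had a Pearson r of 0.938 over the 6 arrays, as a description.

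Il6st, which encodes gp130, the chain shared by the interleukin 6 family, had 3 probe sets, and its genotypes overlapped in each. Its brightest probe set (1452843_at) measured 8.29, 8.07 and 7.94 on the KO arrays, against 7.60, 8.09 and 8.07 on the WT arrays, a difference of 0.18 ± 0.17 (SE, limma adjusted p = 0.785). Without WT replicate 1, the lowest array, it was 0.02. The probe set 1460295_s_at gave 6.37, 6.12 and 5.97 on the KO arrays, against 5.92, 5.80 and 6.00 on the WT arrays, a difference of 0.25 ± 0.13 (0.14 without KO replicate 1). The dim probe set 1421239_at, at 5.03 to 5.36 on KO arrays and 5.23 to 5.35 on WT arrays, differed by -0.08 ± 0.12. Its values ran against those of the other probe sets, with a Pearson r of -0.758 and -0.742 over the 6 arrays.

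Other ligands and receptors of the family showed no common direction. Of 22 probe sets of 11 genes, 10 were above 0, against 50.4% of all, and 12 below, with a median of -0.02. At an unadjusted limma p under 0.05 there were 2, against 6.55% of all probe sets. Both belonged to Clcf1, a ligand that signals through gp130. It measured 8.10, 7.47 and 7.86 on the KO arrays, against 7.09, 7.27 and 7.22 on the WT arrays (1437271_at, difference 0.62 ± 0.17, SE). Every KO array lay above every WT array. Il11, another gp130 ligand, differed by -0.20, Adam10, a protease that sheds receptors, by -0.25, and Lif by -0.47 and -0.26. Il6 itself lay between 3.66 and 5.01 on KO arrays and between 3.32 and 4.78 on WT arrays.

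Il1r1, the signalling receptor for interleukin 1, was the member whose genotypes were apart. It measured 5.38, 5.25 and 5.60 on the KO arrays, against 5.05, 5.05 and 4.82 on the WT arrays (1448950_at). The lowest KO array exceeded the highest WT array by less than the KO arrays differed among themselves. The mean was 5.41 ± 0.18 in KO and 4.97 ± 0.13 in WT (SD, n = 3 each), a difference of 0.44 ± 0.13 (SE) or 1.36-fold, with a 95% interval of 0.13 to 0.76. Over all probe sets the limma adjusted p was 0.706. An exact two-sided permutation test gave p = 0.1, below which 3 arrays a side cannot go. The difference lay between 0.35 and 0.52 with any 1 array left out and was 0.27 without both replicate 3 arrays. In that last fit Il1r1 no longer had an unadjusted limma p under 0.05, and Ahr was the 1 member that did. The values lie between the median of the genes of other organs and just above their upper quartile (5.42), so the signal is weak. Expression cannot be called at this level, and neither the size nor the presence of a true change can be read from it. Macrophage and monocyte markers, listed because interleukin 1 receptors occur on such cells, averaged 4.39 to 4.47 on KO arrays and 4.27 to 4.43 on WT arrays over 18 probe sets. Their part in the Il1r1 difference was not tested.

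The decoy receptor Il1r2, which binds interleukin 1 without signalling, had a larger difference than Il1r1. It measured 11.12, 9.85 and 10.84 on the KO arrays, against 7.50, 7.79 and 9.39 on the WT arrays, with a difference of 2.38 ± 0.56 (SE, limma adjusted p = 0.706). Every KO array lay above every WT array, and the difference was 2.01 to 2.96 with 1 array left out. The shared co-receptor Il1rap differed by -0.08 to 0.16 on its 3 probe sets, and the receptor antagonist Il1rn by 0.00 to 0.18 on 3. Among the 24 probe sets of 13 receptors and kinases of Th17 cells, 8 were higher and 0 lower in KO at an unadjusted limma p under 0.05. Over all probe sets 3.22% were higher and 3.33% lower, and the list's median was 0.26. Il7r and Jak2 each gave 2 of the 8, and the rest were Il1r2, Il21r, Il12rb1 and 1 probe set of Jak1. Il7r differed by 1.34 and 1.55, with the genotypes overlapping on both probe sets. Jak2, the kinase of several cytokine receptors, differed by 0.58 ± 0.18 (1421065_at), and Il21r by 0.43 ± 0.14. The count of 8 was 1 without WT replicate 1, 2 without KO replicate 3 or WT replicate 2, 4 without KO replicate 1, 7 without WT replicate 3 and 9 without KO replicate 2. Over all probe sets, 6.55% had such a p with all arrays, 3.08% without WT replicate 1, 3.24% without KO replicate 3, 3.01% without WT replicate 2, 4.61% without KO replicate 1, 12.2% without WT replicate 3 and 13.7% without KO replicate 2. Il23r was not analysed here.

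**Figure D3:**
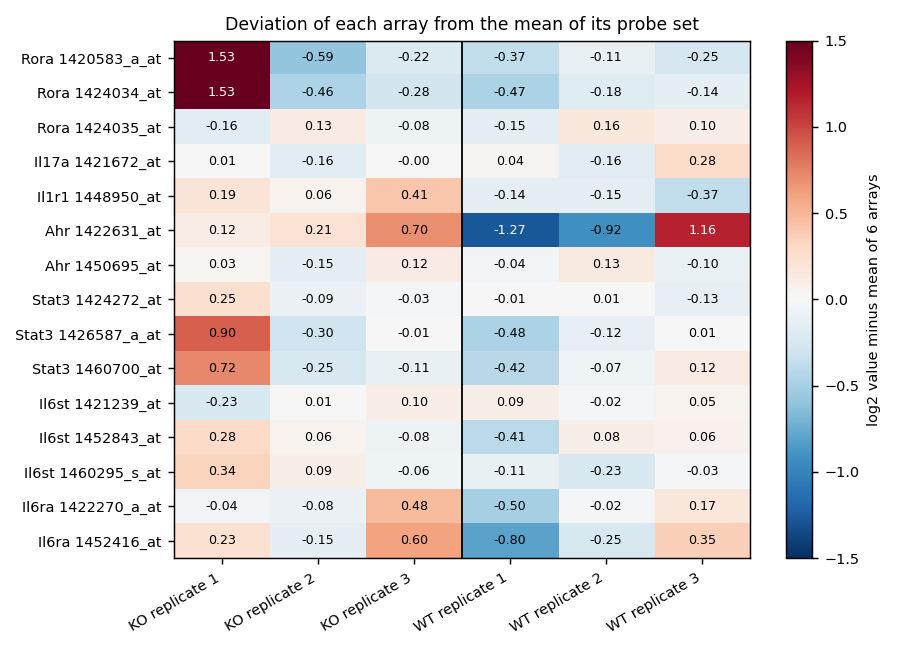
Each cell gives a log2 value minus the mean of the 6 arrays for that probe set, with the KO arrays left of the line and the WT arrays right of it. KO replicate 1 is above the mean in the brighter Rora and Stat3 probe sets, and WT replicate 1 is below it in Ahr 1422631_at and both Il6ra probe sets.

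Of the cytokines that name the subset, Il17a and the shared probe set of Il22 were dim in both genotypes. Il17a measured 4.89, 4.72 and 4.88 on the KO arrays, against 4.92, 4.72 and 5.16 on the WT arrays. All arrays overlapped, with a difference of -0.11 ± 0.14 (SE, limma adjusted p = 0.834) that was 0.01 without WT replicate 3. The values lie between the median and the upper quartile of the genes of other organs, so neither expression nor its absence can be read from them. The probe set shared by Iltifb and Il22 gave 3.14, 3.46 and 3.33 on the KO arrays, against 3.99, 3.29 and 3.62 on the WT arrays. The difference of -0.33 ± 0.19 (limma adjusted p = 0.706) cannot be assigned to either gene, and the values were below the median of the genes of other organs.

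Other outputs of Th17 cells were mixed. Of 13 probe sets of 11 genes, 9 were above 0 and 4 below, and at an unadjusted limma p under 0.05 there were 2 higher and 1 lower. Over all probe sets 50.4% were above 0, and 3.22% were higher and 3.33% lower at that threshold. Il21, a cytokine that sustains Th17 cells, measured 10.49, 10.63 and 10.31 on the KO arrays, against 7.66, 8.15 and 8.92 on the WT arrays. Every KO array lay above every WT array. The difference was 2.24 ± 0.31 (SE, limma adjusted p = 0.706), and 1.94 to 2.58 with 1 array left out. Cxcr6, a chemokine receptor, measured 7.72, 6.13 and 7.64 on the KO arrays, against 5.20, 5.11 and 6.45 on the WT arrays (1425832_a_at), a difference of 1.57 ± 0.54 (SE). KO replicate 2 overlapped with WT replicate 3. Il9, a cytokine that Th17 cells can make, measured 5.02, 4.89 and 4.75 on the KO arrays, against 7.29, 5.24 and 5.72 on the WT arrays. WT replicate 1 stood above the rest, and the difference of -1.20 ± 0.50 was -0.60 without it. Csf2, the gene of GM-CSF, had the same array on top, at 8.35 against 5.84 to 6.20 on the others. Ccr6 and Ccl20, a receptor and ligand pair typical of Th17 cells, differed by -0.12 and 0.11. Both were dim, at 4.92 to 5.50 and 4.75 to 5.43, near the upper quartile of the genes of other organs (5.42). Little can therefore be read from these differences.

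Transcription factors that work with Rora and Stat3 leaned to higher values in KO. Of 29 probe sets of 13 genes, 24 were above 0, against 50.4% of all, with a median of 0.30. At an unadjusted limma p under 0.05, 7 were higher and 0 lower, against 3.22% and 3.33% of all. The 7 came from Batf, Hif1a on 3 probe sets, Satb1 on 2 and Runx1 on 1. Satb1, a chromatin organiser of T cells, measured 12.86, 12.91 and 12.96 on the KO arrays, against 12.19, 12.41 and 12.62 on the WT arrays (1416007_at, difference 0.50 ± 0.13, SE). Batf, a pioneer factor of the Il17a locus, differed by 0.72 ± 0.25, and Hif1a, a factor of the response to low oxygen, by 0.49 ± 0.10 on its brightest probe set. In these 3 probe sets every KO array lay above every WT array. Irf4, the partner of Batf, differed by -0.12 and 0.24 on its 2 probe sets, which thus disagreed in sign. Tox, a chromatin factor of T cells, differed by -1.08 and -0.99, with KO replicate 1 at 4.41 and 4.91 as the lowest array. The 7 higher calls numbered 2 without WT replicate 1 and 3 without KO replicate 3 or WT replicate 2. They numbered 5 without KO replicate 1 (when the median was 0.11), 11 without WT replicate 3 and 13 without KO replicate 2. In the last of these fits 1 probe set was lower. The share of all probe sets with such a p, in either direction, moved with the higher calls. It was 3.08% without WT replicate 1, 3.24% without KO replicate 3 and 3.01% without WT replicate 2. Without KO replicate 1, WT replicate 3 and KO replicate 2 it was 4.61%, 12.2% and 13.7%, against 6.55% with all arrays.

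Inhibitors of the programme leaned the same way. Of 28 probe sets of 15 genes, 24 were above 0, against 50.4% of all, with a median of 0.30. At an unadjusted limma p under 0.05, 6 were higher and 0 lower, against 3.22% and 3.33% of all. Socs3, the feedback inhibitor of the gp130 receptor, gave 3 of the 6. It measured 10.30, 10.02 and 10.69 on the KO arrays, against 8.22, 8.80 and 9.89 on the WT arrays (1416576_at), a difference of 1.37 ± 0.42 (SE). Every KO array lay above every WT array. Stat5a, which competes with Stat3 at the Il17a locus, differed by 0.68 ± 0.19 and 0.35 on its 2 probe sets. Ets1, a restraint on Th17 differentiation in mice, differed by 0.36 ± 0.13 on 1426725_s_at. On its other probe sets Ets1 differed by 0.60, 0.70 and 0.35, with the genotypes overlapping in each. Foxp3 and Tbx21, the factors of regulatory T cells and Th1 cells, differed by -0.45 and -0.22. Foxp3 was dim, at 3.31 to 4.74 over the 6 arrays, the level of the genes of other organs. The 6 calls numbered 1 without KO replicate 3 and 3 without WT replicate 2, and between 4 and 8 without any other array, with the shares of all probe sets given above. The factors that promote the programme and those that inhibit it had the same median, 0.30.

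**Figure D4:**
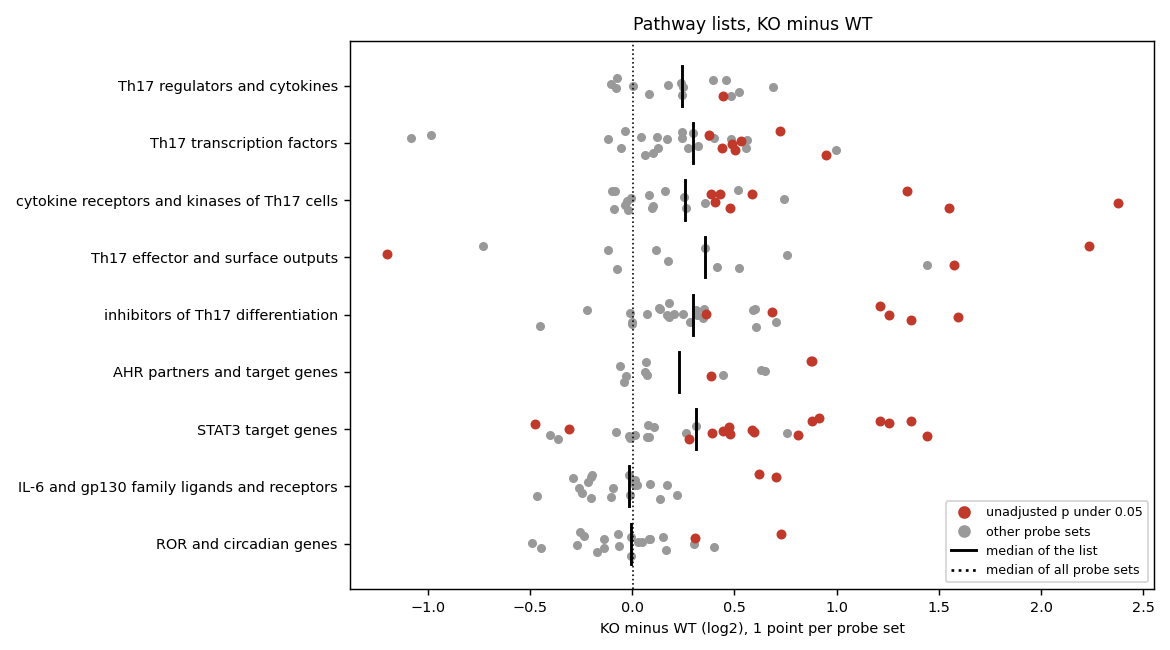
KO minus WT (x axis, log2) for the 15 member probe sets and every probe set of the 8 pathway lists, with red points at an unadjusted limma p under 0.05, a black bar at each list's median and a dotted line at the median of all probe sets. The medians lie between 0.23 and 0.36 in 7 rows and at -0.02 and -0.01 in the gp130 family and the circadian rows.

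CD4 T cell markers also leaned to higher values in KO. Of their 19 probe sets, 17 were above 0, against 50.4% of all, with a median of 0.23. The list averaged 9.95 to 10.22 on KO arrays and 9.67 to 10.07 on WT arrays. Their list score was lowest on WT replicate 1, at -0.33, which was also the lowest array for both Il6ra probe sets, for Ahr (1422631_at) and for 6 of the 8 pathway lists. The part of such a shift in the lists' medians was not tested, and in bulk cultures fewer cells of a type and less RNA per cell cannot be told apart. Markers of gamma delta T and innate lymphoid cells, other sources of interleukin 17, averaged 4.29 to 4.56 on KO arrays and 4.20 to 4.47 on WT arrays over 6 probe sets. The genes of other organs averaged 4.68 to 4.77 on KO arrays and 4.72 to 4.73 on WT arrays. CD8 markers averaged 6.14 to 6.25 on KO arrays and 6.01 to 6.53 on WT arrays, and B cell markers 5.63 to 6.01 on KO arrays and 5.47 to 6.04 on WT arrays.

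The array patterns of the 3 most variable members were matched to the rest of the table by Pearson r over the 6 arrays, among 5196 other probe sets with 1 gene and an SD of at least 0.3. With 6 arrays and so many candidates a high r is easily reached, and the values are a description. Ahr (1422631_at) was most like Tmem260, Zeb2 and Tax1bp3, with r of 0.991, 0.981 and 0.973. Rora (1420583_a_at) was most like Slc27a3, Acer2 and Slc2a3, with r of 0.998, 0.996 and 0.995. Slc2a3, a glucose transporter gene, measured 10.49, 6.67 and 7.32 on the KO arrays, against 6.97, 7.17 and 7.26 on the WT arrays, so that these patterns consist mainly of KO replicate 1. Il6ra (1452416_at) was most like Lsr, Frmd8 and Adam15, with r of 0.996, 0.996 and 0.994. Like Il6ra, all 3 were lowest on WT replicate 1 and highest on KO replicate 3.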

How the data were processed

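Per the submitters' processing notes, the authors' deposited log2 values came from RMA run in the affy package. Software versions were not given in the sources used here. The method subtracts background, equalises the arrays and summarises probes per probe set, which compresses differences of dim probe sets. Of 22690 rows, 64 controls were removed, and array medians were 6.44 to 6.48. Names were taken from GEO's platform annotation, in which 20380 probe sets had 1 symbol, 691 several and 1555 none. All 22626 probe sets were fitted without a filter or block in R 4.3.3 (limma 3.58.1, eBayes, two-sided, Benjamini-Hochberg, threshold 0.05), and SciPy 1.17.1 gave intervals. The members, lists and rules were chosen with earlier results of these data known. Named were every member probe set, the 3 genes with the smallest p of each of 8 pathway lists, and the 3 genes most like each of 3 members. Other list genes were named after their values were seen. The code was tested on simulated data. The alternatives are those of the closing section. The number of arrays limits the precision.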

Additional observations from a re-analysis of the deposited data

How the results depend on the processing

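No setting gave an adjusted p under 0.05 for any probe set. The share of all probe sets with an unadjusted limma p under 0.05 was 3.01% to 13.7% with 1 array left out and 23.3% with array weights, against 6.55%. The member probe sets at that threshold, 1 in the main setting, numbered 1 to 3 with 1 array left out, 3 with array weights (Il1r1 at 0.50, Ahr at 1.24 and Il6ra at 0.68), and 0 with the dimmest 50% of probe sets left out, where Il1r1 was not tested. Without WT replicate 3 the 3 were Il1r1 at 0.37, Ahr at 1.44 and Il6ra at 0.75. With the replicate number as a block there was 1 member and 9.07% of all probe sets. Same-numbered arrays had deviations correlated at -0.00776, 0.594 and 0.362, and not every array was most like its own number, so the correlations did not meet the bar for pairs. Same-numbered arrays did share their Xist and Y-linked pattern, so the numbers may still mark matched animals. The block changed no call among the members.

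Of 216 member values under the alternatives, 16 changed sign, in 8 probe sets. Without KO replicate 1, 2 probe sets of Rora, 2 of Stat3, Il6st 1421239_at and Ahr 1450695_at (-0.011) turned, as did Slc27a3, Acer2 and Slc2a3. With array weights they were 0.0273 (Il17a), 0.0426 (Il6st 1421239_at), -0.00171 (Il6st 1452843_at) and -0.00832 (Ahr 1450695_at). The last was also -0.0119 after a second quantile normalization, -0.0561 without KO replicate 3, -0.013 without WT replicate 1, -0.0454 without WT replicate 3 and -0.106 without both replicate 3 arrays, and Il17a turned without WT replicate 3. Median centring, other filters or moderation changed no sign of a named probe set. The causes were not tested. With 1 array left out the probe sets that turned ranged from -0.164 to 0.898 (Rora 1420583_a_at), -0.109 to 0.887 (Rora 1424034_at), -0.0177 to 0.152 (Stat3 1424272_at), -0.0554 to 0.428 (Stat3 1460700_at), -0.15 to 0.017 (Il6st 1421239_at), -0.0561 to 0.0807 (Ahr 1450695_at), -0.211 to 0.00565 (Il17a), -0.137 to 0.718 (Slc27a3), -0.101 to 0.542 (Acer2) and -0.139 to 1.77 (Slc2a3). Leaving single arrays out of the list counts was a choice made with the data in view.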
